A study of Mus musculus with 24 samples.

Results

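Synaptic vesicles store neurotransmitter in the nerve terminal, dock and are primed at the active zone, fuse with the plasma membrane when calcium enters, and are retrieved by endocytosis. The 45 genes described here encode proteins of these steps and were chosen by function, as the rows of the expression table whose symbol was on a list of such genes, from 21553 genes with counts. They fall into 7 roles, which start with vesicle proteins and synapsins, vesicular glutamate transporters, and calcium sensors with related proteins. The others are SNAREs with complexins and SNARE recycling, priming factors, active zone and Rab3 proteins, and endocytosis. The list was made with earlier results of these data known. All 45 had counts and all 45 passed the filter on low counts.

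Poly(A)+ RNA was sequenced from mouse cells at 4 stages of neural differentiation in culture. These were embryonic stem cells (ESCs) kept in 2i medium, neural progenitor cells (NPCs) at day 7 and PSA-NCAM+ cells at day 10. The last stage, described as post-mitotic (mature) neurons, was replated at day 7 and grown for 14 more days. At every stage wild-type (WT, wt/wt) cells were set beside slow/slow cells. The latter carry Polr2a[R749H/R749H], a homozygous knock-in substitution (R749H) in the catalytic subunit of RNA polymerase II that slows elongation. There were 3 replicates in each of the 8 groups, which the study describes as 3 independent differentiation experiments for ESCs, NPCs and neurons. For PSA-NCAM+ cells no such description was found. At every stage the p-values measure only the spread between these samples. The sample titles name no separate cell lines within a genotype, so a difference between lines cannot be told apart from one of genotype. WT cells had been plated at 10000 cells per cm2 and slow/slow cells at 30000 for the NPC and PSA-NCAM+ stages, so density and genotype cannot be told apart there. Neurons were replated from day 7 cultures. If those were plated alike, density before replating and genotype cannot be told apart in neurons either. The counts do not show the substitution itself, so the genotype labels were not checked against it.

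Total counts per sample ran from 32974432 to 104466886. The PSA-NCAM+ libraries were the least alike. Each library's mean correlation with the other 2 of its group (log2(CPM + 1), where CPM is the count scaled to its library's TMM-adjusted total) was 0.982 to 0.9898 in WT and 0.966 to 0.983 in slow/slow PSA-NCAM+ cells, against at least 0.998 at the other stages. Replicate 1 had the lowest value in each genotype there, 0.982 in WT and 0.966 in slow/slow cells, and main results at that stage are also given without it. WT neurons had all 15 pan-neuronal markers measured (such as Tubb3, Dcx and Stmn2) at a summed level of 7684 to 8266 CPM, against 332 to 390 CPM in WT ESCs. Progenitor markers summed to 1995 to 2309 CPM in WT neurons, against 525 to 554 CPM in WT NPCs. Proliferation markers summed to 724 to 911 CPM in WT neurons, against 2426 to 2523 CPM in WT NPCs.

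Snap25 encodes a plasma membrane SNARE and is a member whose level and exon choice both changed. It carries a pair of alternative exons of 118 bases each, of which the upstream one is known to be used early in development and the downstream one to prevail in the mature brain. The pair is shown because the balance between them shifted in slow/slow neurons. Capitals mark the 31 bases that differ (identity 73.7%), and the sequences are those of GENCODE transcripts at chr2:136769743-136769860 and chr2:136770057-136770174 (GRCm38, plus strand), where both exons are coding.
Snap25 upstream exon: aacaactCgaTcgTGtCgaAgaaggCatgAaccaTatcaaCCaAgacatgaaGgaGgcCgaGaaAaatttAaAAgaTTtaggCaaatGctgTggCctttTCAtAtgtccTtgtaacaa
Snap25 downstream exon: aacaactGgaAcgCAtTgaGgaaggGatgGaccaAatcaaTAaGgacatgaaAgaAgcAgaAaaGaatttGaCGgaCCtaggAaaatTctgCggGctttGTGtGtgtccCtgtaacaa

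Summed over the 45 members, the level was highest in neurons. In WT cells the sum was 521.5 to 534.8 CPM in ESCs, 490.5 to 512.9 in NPCs, 440.1 to 454.9 in PSA-NCAM+ cells and 5503 to 6086 in neurons. In slow/slow cells it was 417.0 to 437.8, 489.9 to 496.7, 494.3 to 559.2 and 2704 to 2778 CPM at the same stages. Every slow/slow neuron library was thus below every WT one. The slow/slow ESC sums were also below the WT ones and the slow/slow PSA-NCAM+ sums above them, and in NPCs the genotypes overlapped.

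Compared per length, on the authors' mean RPKM, the most abundant members in WT neurons were the vesicle SNARE Vamp2 (144), the small GTPase Rab3a (138), synaptophysin Syp (112), the synaptotagmin Syt11 (103) and Snap25 (102). The least abundant were the vesicular glutamate transporter Slc17a7 (0.12) and the vesicle glycoprotein Sv2b (0.507). RPKM values are group means without an error, so whether neighbours in that order, such as Syt11 and Snap25, differ was not tested. In WT ESCs the order was different, with the SNARE-disassembling ATPase Nsf first at 44.6 RPKM and Vamp2 at 10.6.

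Against ESCs, 42 of the 45 members were higher in WT neurons (background 43.4% of the 16627 genes tested) and 1 was lower, Slc17a7 (background 39.4%). In slow/slow neurons 42 were likewise higher than in slow/slow ESCs (44%) and 2 were lower, Slc17a7 and Nsf (38.4%). Calls here and below are edgeR quasi-likelihood tests with a Benjamini-Hochberg adjusted p (FDR) under 0.05. In WT cells 2 members, Cadps2 and Doc2b, were called neither way, and in slow/slow cells 1, Vamp1. In WT NPCs 21 members were higher (34%) and 11 lower (31.6%) than in ESCs, and in slow/slow NPCs 25 were higher (33.9%) and 5 lower (28.4%). In WT PSA-NCAM+ cells 21 were higher (37.6%) and 10 lower (33.6%), and in slow/slow ones 28 were higher (39.2%) and 8 lower (34.2%). Without replicate 1 of that stage these became 22 higher and 13 lower in WT, and for slow/slow cells 32 and 9. Of the 16746 genes tested in that fit, 6548 were called up and 6301 down in WT, and for slow/slow cells 6761 and 6204. The fit to all samples had called 6244 and 5593 of 16627 genes in WT, and for slow/slow cells 6510 and 5693. Calls among all genes thus grew as well. The contrasts of one genotype share their ESC samples.

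**Figure D1:**
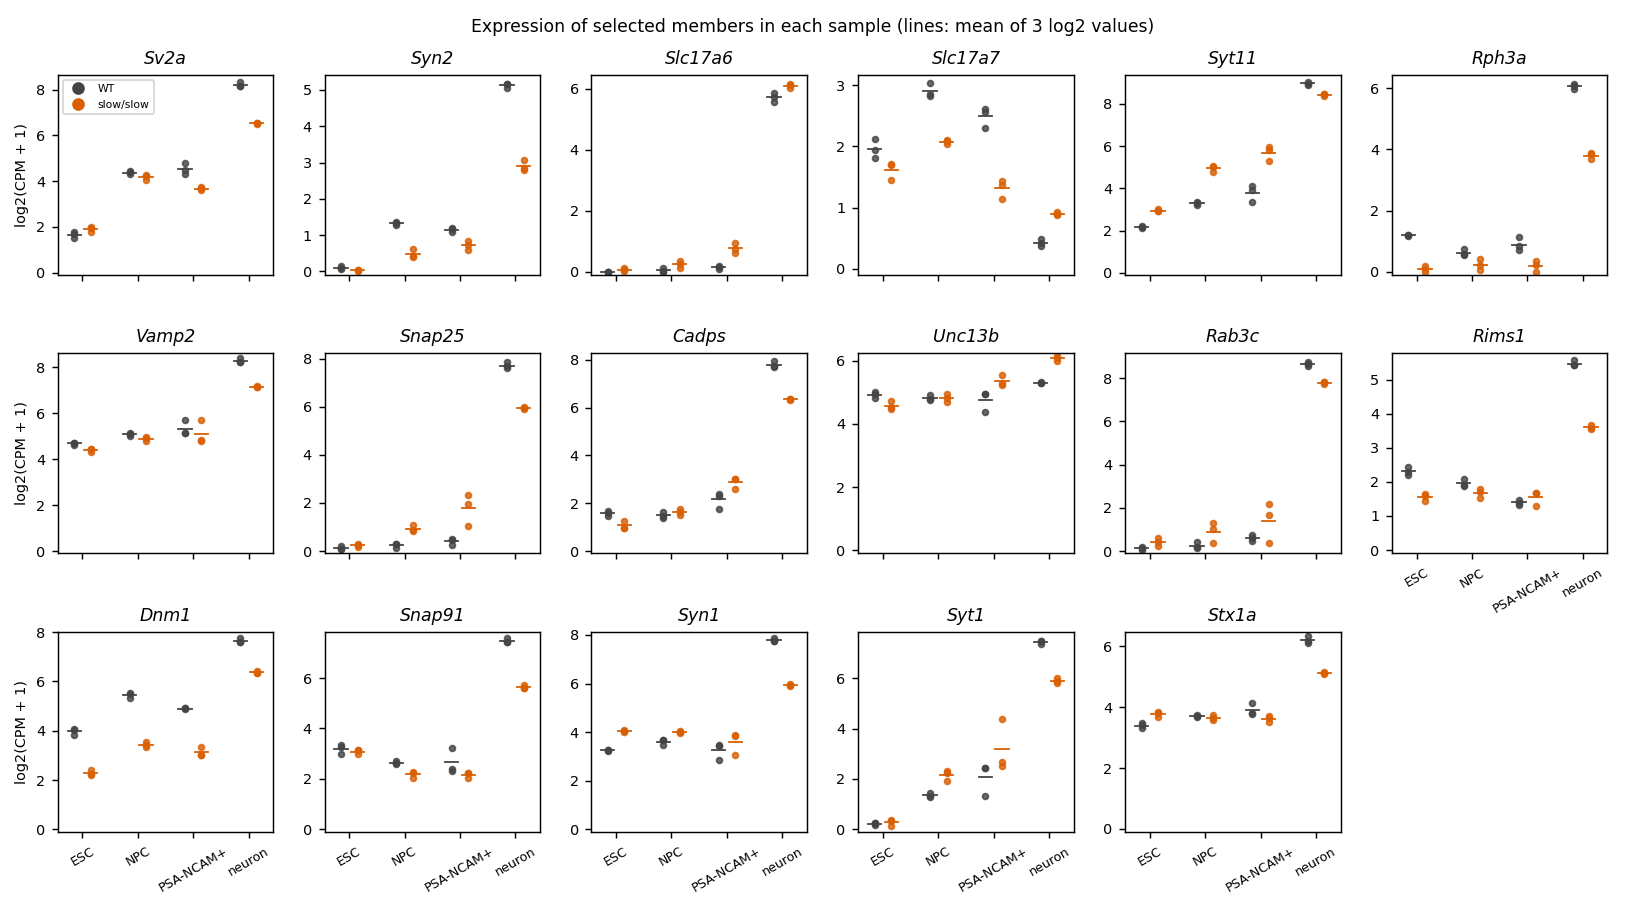
Expression of 17 members in each sample, as log2(CPM + 1) on the y axis against stage on the x axis, with WT in grey, slow/slow in orange and a line at the mean of the 3 log2 values. In neurons the slow/slow points lie below the WT points in 14 of the 17 panels, and above them in Slc17a6, Slc17a7 and Unc13b.

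In neurons 33 of the 45 members were lower in slow/slow than in WT cells, against 28.4% of all genes tested, and 2 were higher, against 23.4% of all genes. The median log2 change of the members was -1.21, and that of all genes tested was -0.06. All 3 slow/slow libraries lay below all 3 WT libraries for 37 members, a pattern that 42% of all genes showed. Leaving out any 1 of the 6 neuron libraries left 35 calls, and each of the 33 falls and both rises was called in every such fit. A fit to the 6 neuron samples alone also called 6 of the 10 members not called here. They were Rab3c, Slc17a6, Cadps2, Syt2, Unc13a and Cplx2. In that fit 11763 of 15415 genes were called. Calls on members in neurons below are those of the fit to all samples unless stated. Bulk RNA does not tell fewer cells of a type from less RNA per cell.

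Markers of other cell states moved at the same time, and their part in these falls was not tested. Of the 15 pan-neuronal markers 8 were lower and 1, Nefm, was higher in slow/slow neurons, and their summed level was 5892 to 6256 CPM. The members' sum relative to that of these markers, with 0 genes in common, was 0.699 to 0.736 in WT and 0.444 to 0.461 in slow/slow neurons. Of 8 progenitor markers 6 were higher and 0 lower, with sums of 2504 to 2864 CPM in slow/slow and 1995 to 2309 CPM in WT neurons. Pax6 rose from 12.3 to 80.9 CPM and Hes5 from 14.3 to 100 CPM. Of 7 mesenchymal and 7 endoderm markers, 6 each were higher and 1 each lower, with sums of 619 to 657 against 266 to 343 CPM and 160 to 168 against 98.9 to 116 CPM. Of 7 proliferation markers 3 were higher, with sums of 1116 to 1177 against 724 to 911 CPM. Pluripotency markers summed to 96.4 to 103 CPM in slow/slow and 111 to 146 CPM in WT neurons, with 5 of 8 higher and 1, Pou5f1, lower. Of 6 astrocyte markers tested 4 were lower and 1 higher, with sums of 250 to 256 against 365 to 450 CPM, and of 7 oligodendrocyte lineage markers 2 were lower and 3 higher, with sums of 49.9 to 74.4 against 76.5 to 97.0 CPM. Of the mesenchymal and endoderm markers, Afp and Ttr were near 0 in WT neurons (0.0212 and 0.0823 CPM) and at 9.60 and 2.85 CPM in slow/slow neurons.

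Vesicle proteins and synapsins held 9 falls among 10 members, with a median change of -1.78 on the log2 scale. Synapsin I (Syn1), which tethers vesicles in the reserve pool, was at 236, 212 and 214 CPM in the WT libraries and 59.0, 59.7 and 62.3 CPM in the slow/slow ones. It was 3.66-fold lower (log2 change -1.87 ± 0.17 SE, FDR = 2.21e-08), and its span overlaps Araf and Timp1. Synapsin II (Syn2) had the largest fall of any member, from 34.9, 35.0 and 32.1 CPM to 6.17, 7.34 and 5.97 CPM (log2 change -2.39 ± 0.19, FDR = 4.18e-09). Its span overlaps Timp4. Whether counting used strand is not stated, and without it reads of such pairs cannot be told apart. The same holds for Syn3 (Timp3), Syngr1 (Rpl3), Syt2 (Ppp1r12b), Vamp1 (Tapbpl and Cd27), Unc13a (Colgalt1), Rab3a (Mpv17l2) and Dnm1 (Ciz1). Cadps2 overlaps Rnf133 and Rnf148 on its own strand, and Dnm3 overlaps Gm10176.

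Sv2a, a vesicle glycoprotein and the most highly counted member of this role, was at 318, 286 and 288 CPM in the WT libraries and 89.4, 90.9 and 92.6 CPM in the slow/slow ones (log2 change -1.71 ± 0.11, FDR = 2.06e-10). Its paralogue Sv2c fell by 1.86 on the log2 scale. Sv2b was low in both genotypes, at 2.79 ± 0.35 and 2.41 ± 0.32 CPM, and was the only member of the role that was not called. Synaptophysin (Syp), synaptogyrins Syngr3 and Syngr1, beta-synuclein (Sncb) and Syn3 were lower by 1.66, 2.15, 1.24, 2.18 and 1.04 on the log2 scale. The groups of these 5 genes did not overlap.

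Neither of the 2 vesicular glutamate transporters among the members was called lower. Slc17a6 (VGLUT2), which loads glutamate into vesicles, was at 57.2, 46.5 and 52.5 CPM in the WT libraries and 70.4, 68.4 and 64.1 CPM in the slow/slow ones. The groups did not overlap, but the change was not called (log2 change 0.38 ± 0.22, FDR = 0.155). Slc17a7 (VGLUT1) rose from 0.338, 0.289 and 0.404 CPM to 0.834, 0.909 and 0.850 CPM (log2 change 1.31 ± 0.19, FDR = 9.45e-06), at most 42 counts in a WT and 73 in a slow/slow library.

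Of the 8 members grouped as calcium sensors and related proteins, which are synaptotagmins, Doc2b and rabphilin, 6 were lower and 2 were not called. Synaptotagmin-1 (Syt1), the sensor for fast release, was at 178, 176 and 164 CPM in the WT libraries and 55.0, 63.3 and 57.7 CPM in the slow/slow ones (log2 change -1.56 ± 0.39, FDR = 0.00208). Rabphilin (Rph3a), a Rab3 effector, fell from 66.9, 69.6 and 61.3 CPM to 11.96, 13.3 and 13.7 CPM (log2 change -2.35 ± 0.36, FDR = 1.62e-05). Syt11, the most highly counted member of this role, fell less, from 527, 478 and 496 CPM to 335, 358 and 350 CPM (log2 change -0.53 ± 0.15, FDR = 0.00593). Syt5, Syt7 and Syt4 fell by 1.48, 0.98 and 0.70 on the log2 scale. Syt2 (log2 change -0.37 ± 0.31) and Doc2b (-0.08 ± 0.22) were not called.

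Among SNAREs, complexins and SNARE recycling factors 7 of 8 members fell. Snap25 was at 228, 203 and 194 CPM in the WT libraries and 61.9, 60.3 and 58.4 CPM in the slow/slow ones, the largest fall of this role (log2 change -1.79 ± 0.25, FDR = 7.53e-06). Its partner syntaxin-1A (Stx1a) fell from 80.0, 69.0 and 71.4 CPM to 33.4, 34.4 and 33.6 CPM (log2 change -1.12 ± 0.10, FDR = 1.28e-08). Vamp2, the vesicle SNARE of the same complex, fell from 339, 295 and 302 CPM to 139, 140 and 143 CPM (log2 change -1.15 ± 0.18, FDR = 1.83e-05). All 3 components of the fusion complex were therefore at least 2.17-fold lower.

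The disassembly factors Nsf and Napb were lower by 1.31 and 1.07, and Vamp1 and complexin-1 (Cplx1) by 1.58 and 1.28, on the log2 scale. Complexin-2 (Cplx2), which like Cplx1 clamps and promotes fusion, was at 110, 109 and 106 CPM in the WT libraries and 105, 115 and 113 CPM in the slow/slow ones, and the groups overlapped (log2 change 0.03 ± 0.20, FDR = 0.922).

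Priming factors did not move together. Cadps (CAPS-1), which primes vesicles for release, fell from 244, 208 and 212 CPM to 81.8, 81.7 and 79.8 CPM (log2 change -1.45 ± 0.17, FDR = 5.44e-07). Unc13b (Munc13-2) rose from 38.8, 38.3 and 37.98 CPM to 66.2, 70.3 and 63.0 CPM (log2 change 0.79 ± 0.12, FDR = 2.27e-05). Unc13a (Munc13-1) was at 102 ± 10.9 CPM in the WT libraries and 108 ± 2.38 CPM in the slow/slow ones and was not called (log2 change 0.08 ± 0.10), and Cadps2 had a log2 change of -0.69 ± 0.33 without being called (FDR = 0.0897).

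At the active zone the scaffold Rims1 fell most, from 46.4, 41.9 and 41.8 CPM to 11.6, 11.02 and 10.7 CPM (log2 change -1.97 ± 0.15, FDR = 1.47e-09). Its paralogue Rims2 was at 35.9, 33.2 and 32.9 CPM in the WT libraries and 33.5, 37.6 and 33.1 CPM in the slow/slow ones, with overlapping groups (log2 change 0.03 ± 0.10). The large scaffolds Pclo, Bsn and Erc2 fell by 1.30, 1.13 and 1.21 on the log2 scale.

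Of the Rab3 GTPases, which tether vesicles at the active zone, Rab3c had the most counts in WT neurons, at 423, 396 and 380 CPM against 224, 222 and 213 CPM in slow/slow neurons. The groups did not overlap, but the change missed the threshold (log2 change -0.86 ± 0.37, FDR = 0.0576). It was called in the fit to the neuron samples alone. Rab3a fell by 0.60 on the log2 scale and Rab3b had a change of -0.27 ± 0.19 that was not called.

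All 5 endocytosis genes fell. The clathrin adaptor Snap91 (AP180) fell from 189, 171 and 170 CPM to 48.3, 51.9 and 47.3 CPM (log2 change -1.85 ± 0.19, FDR = 9.94e-08). Dynamin-1 (Dnm1), the GTPase that cuts vesicles from the membrane, had the most counts of the role in WT neurons and fell from 214, 192 and 193 CPM to 80.6, 81.3 and 84.6 CPM (log2 change -1.28 ± 0.10, FDR = 2.35e-09). Synaptojanin-1 (Synj1), Dnm3 and amphiphysin (Amph) fell by 1.28, 1.31 and 1.10 on the log2 scale.

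**Figure D2:**
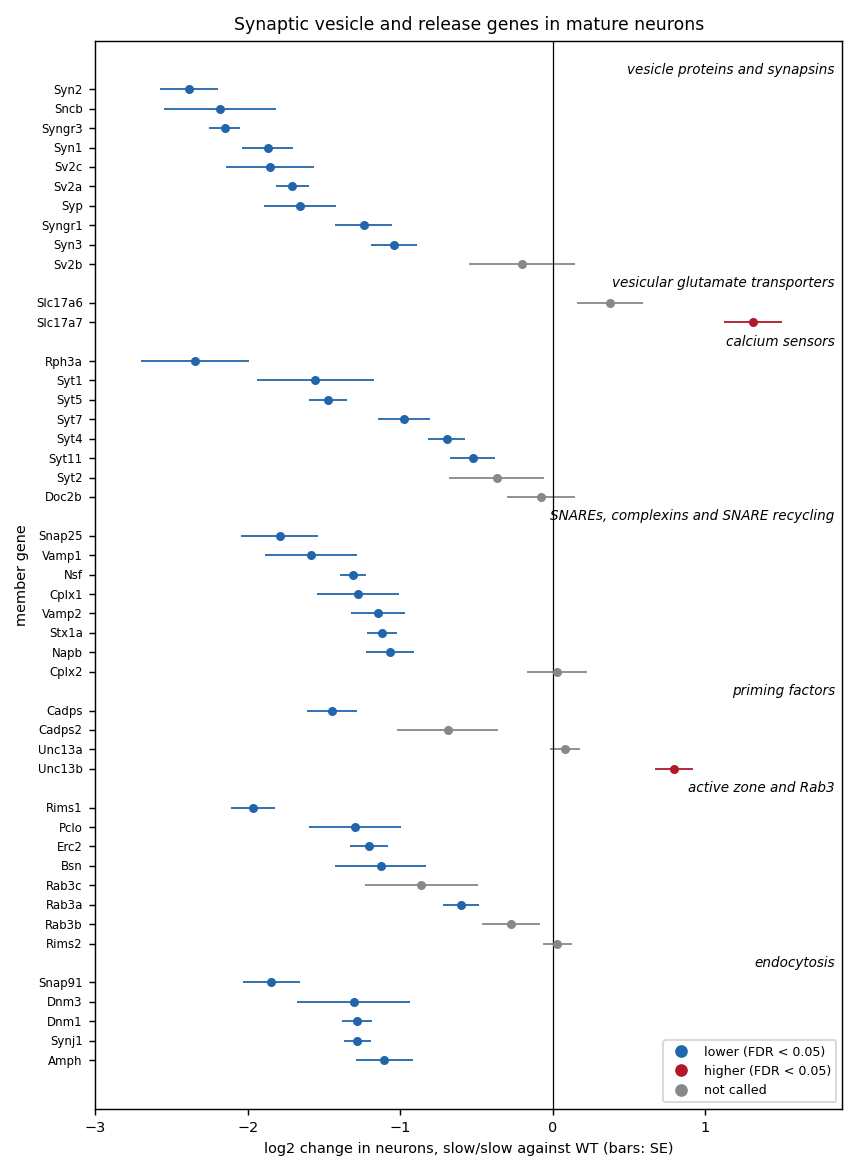
Log2 change of each member in neurons, slow/slow against WT (x axis, bars are SE), grouped by role, with blue for lower, red for higher and grey for not called. The 33 falls reach -2.39 (Syn2), and the 2 rises are Unc13b (0.79) and Slc17a7 (1.31).

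Whole chromosomes that hold some members were shifted. Over all genes tested on chromosome 8 the median log2 change in slow/slow cells was 0.45, 0.49, 0.46 and 0.44 in ESCs, NPCs, PSA-NCAM+ cells and neurons, and Unc13a and Rab3a lie there. On chromosome 15, which holds Syngr1 and Rims2, it was -0.60, -0.57, -0.56 and -0.08. Among chromosomes with at least 200 genes tested, the next largest median at any stage was 0.15, for chromosome 13 in NPCs. The part of these shifts in the members' changes was not tested.

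The members' fall in neurons was similar across gene spans. Member spans (GENCODE, GRCm38) ran from 3.9 kb (Vamp2) to 856 kb (Erc2), with a median of 64.3 kb against 23.2 kb for the genes tested that had one (98.1%). The median log2 change was -1.15 for the 13 members under 30 kb, -1.204 for 14 members of 30 to 100 kb, -1.10 for 9 members of 100 to 300 kb and -1.30 for 9 members over 300 kb. Over all genes tested the medians in these classes were 0.00, -0.07, -0.21 and -0.61. Spearman's rho between span and change was -0.03 over the 45 members and -0.12 over 16312 genes, given as descriptions across genes of the same libraries.

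**Figure D3:**
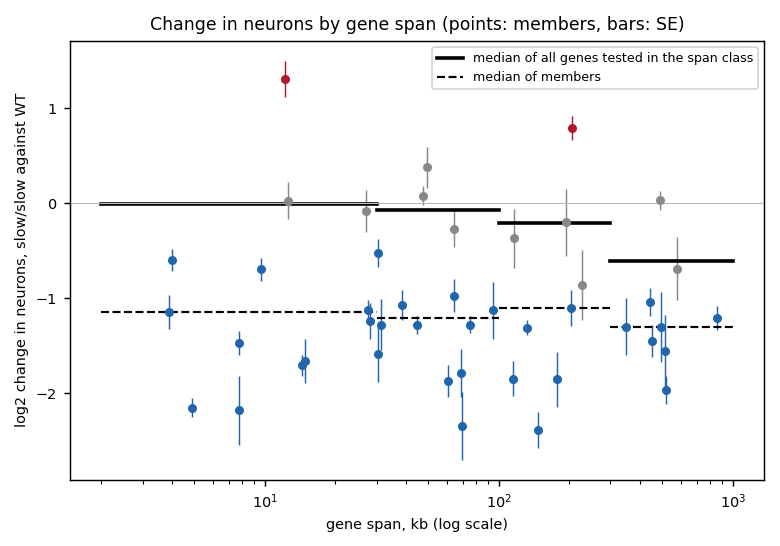
Log2 change in neurons, slow/slow against WT (y axis, bars are SE), against gene span in kb (x axis, log scale), with each member a point coloured by its call. Dashed lines give the members' median in each span class, which stays between -1.30 and -1.10, and solid lines the median of all genes tested, which goes from 0.00 to -0.61.

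At the earlier stages the members showed no such common direction. In ESCs 13 members were lower (background 21.9%) and 11 higher (18.5%) in slow/slow cells, with a median log2 change of 0.00 against -0.02 over all genes. The median is -0.03 over the 43 members without Sv2b and Slc17a6, which had 0 counts in every WT ESC library. Leaving out 1 library gave 16 to 20 calls, and 8 of the falls and 6 of the rises were called in every such fit. Doc2b had a mean of 4.35 ± 0.36 CPM in the WT libraries and 0.538 ± 0.091 in the slow/slow ones (log2 change -2.998 ± 0.26). It and Rph3a, at 1.28 ± 0.045 and 0.0703 ± 0.0716 CPM (log2 change -3.99 ± 0.62), had the largest falls. Dnm1 fell from 14.9 ± 1.57 to 3.91 ± 0.38 CPM (log2 change -1.93 ± 0.11). Syn1 rose from 8.50 ± 0.23 to 15.6 ± 0.66 CPM (log2 change 0.87 ± 0.17), the reverse of its change in neurons. Of the 15 pan-neuronal markers 8 were higher and 0 lower in slow/slow ESCs (sums of 539 to 610 against 332 to 390 CPM), and of the 7 mesenchymal markers 2 were lower and 1 higher (15.9 to 19.2 against 42.6 to 45.3 CPM). Their part in these changes was not tested.

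In NPCs 10 members were lower (27.4%) and 16 higher (29.3%), with a median log2 change of 0.06 against 0.01 over all genes. The largest rises were those of Cplx2, from 3.12, 2.81 and 2.71 CPM to 19.5, 25.0 and 27.7 CPM (log2 change 3.06 ± 0.22, FDR = 1.63e-09), and of the synaptotagmin Syt4, from 0.250, 0.181 and 0.225 CPM to 1.76, 1.53 and 1.53 CPM (2.89 ± 0.21, FDR = 1.40e-09). Snap25 was next, from 0.229, 0.106 and 0.240 CPM to 0.828, 0.764 and 1.13 CPM (2.24 ± 0.45, FDR = 0.000297). Cplx2 was at a mean of 24.1 CPM in slow/slow NPCs, while Snap25 and Syt4 stayed below 2 CPM in every NPC library.

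The largest falls in NPCs were those of Dnm1, Syn2 and Rph3a. Dnm1 fell from 39.7, 44.6 and 44.7 CPM to 9.69, 10.7 and 9.27 CPM (log2 change -2.12 ± 0.10, FDR = 1.01e-11). Syn2 fell from 1.41, 1.58 and 1.51 CPM to 0.324, 0.334 and 0.518 CPM (log2 change -1.97 ± 0.23, FDR = 6.16e-07). Rph3a went from 0.478, 0.664 and 0.495 CPM to 0.0388, 0.334 and 0.172 CPM (-1.78 ± 0.57, FDR = 0.0115). The call on Rph3a was lost without slow/slow replicate 1 (-1.09, FDR = 0.105). Leaving out 1 library gave 19 to 20 calls, and 5 of the 10 falls and 10 of the 16 rises were called in every such fit. Syn1 and Syt1, higher in NPCs by 0.43 ± 0.17 and 1.14 ± 0.45 on the log2 scale, were among those that were not. Syn1 was not called without WT replicate 1 or 3 or slow/slow replicate 1 or 2 (0.36 to 0.47), and Syt1 was called only when slow/slow replicate 1 was the library left out (1.06 to 1.23 otherwise).

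Pan-neuronal markers were higher in slow/slow NPCs (13 of 15 higher, 1 lower, sums of 531 to 593 CPM against 204 to 212 CPM) and progenitor markers were too (6 of 8, sums of 714 to 822 against 525 to 554 CPM). Pluripotency markers were lower there (6 of 8, sums of 1712 to 1965 against 2740 to 2785 CPM), and of 7 mesenchymal markers 3 were lower and 1 higher (93.1 to 128 against 220 to 255 CPM). Their part in the members' changes was not tested.

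In PSA-NCAM+ cells 10 members were lower (28.1%) and 21 higher (28.6%), with a median log2 change of 0.41 against -0.01 over all genes. At this stage deviations correlated between samples of the same replicate number (0.523, 0.415 and 0.379). They also did between replicates 2 and 3 across the genotypes (0.365 and 0.221), so a pairing by number is an assumption. A fit to its 6 samples alone made 11 calls, 4 lower and 7 higher, and with the replicate number as a block 17, 7 lower and 10 higher. Leaving out slow/slow replicate 1 gave 40 calls, and leaving out replicate 1 of both genotypes 35, 11 lower and 24 higher. The share of all genes called moved with these counts. It was 56.7% in the fit to all samples, 23.3% in the stage alone, 41.3% with the block, 68.9% without slow/slow replicate 1 and 68% without replicate 1 of both genotypes.

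Cplx2 again rose most at this stage, with Snap25 and Slc17a6. Cplx2 went from 5.18, 6.07 and 7.15 CPM to 31.6, 63.2 and 65.7 CPM (log2 change 3.13 ± 0.22, FDR = 6.10e-10). Snap25 went from 0.405, 0.195 and 0.358 CPM to 1.08, 2.84 and 3.97 CPM (3.02 ± 0.35, FDR = 5.71e-07). Slc17a6 went from 0.127, 0.156 and 0.0652 CPM to 0.551, 0.672 and 0.917 CPM (2.63 ± 0.37, FDR = 8.92e-06). The first libraries of Cplx2 and Snap25 were the lowest of their slow/slow groups, and without replicate 1 of both genotypes the changes were 3.28, 3.58 and 2.87, all called.

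The falls at this stage were led by Rph3a, Dnm1 and Slc17a7. Rph3a went from 1.18, 0.798 and 0.635 CPM to 0, 0.171 and 0.284 CPM (log2 change -2.35 ± 0.48, FDR = 0.000373), and was not called in the fit to the stage alone (FDR = 0.0771), nor with the block (FDR = 0.0719). Dnm1 fell from 28.3, 29.1 and 29.3 CPM to 9.21, 7.15 and 7.12 CPM (-1.89 ± 0.10, FDR = 2.88e-11). Slc17a7 fell from 3.94, 4.90 and 5.08 CPM to 1.205, 1.70 and 1.57 CPM (-1.63 ± 0.17, FDR = 1.17e-07). Without replicate 1 of both genotypes the changes were -1.64, -2.03 and -1.61, all called. Syt1 was at 19.97 CPM in slow/slow replicate 1 and at 4.76 and 5.32 CPM in the others, and its rise of 1.54 was not called without replicate 1 (0.19, FDR = 0.184). At this stage 13 of the 15 pan-neuronal markers were higher and 1 lower, with sums of 414 to 1007 CPM against 178 to 240 CPM. Progenitor markers were higher (7 of 8, sums of 1646 to 1844 against 801 to 1007 CPM), pluripotency markers lower (6 of 8, 868 to 932 against 1669 to 2245 CPM), and astrocyte markers, with 2 higher and 2 lower of 6, summed to 421 to 510 against 228 to 313 CPM. The part of these markers was not tested.

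**Figure D4:**
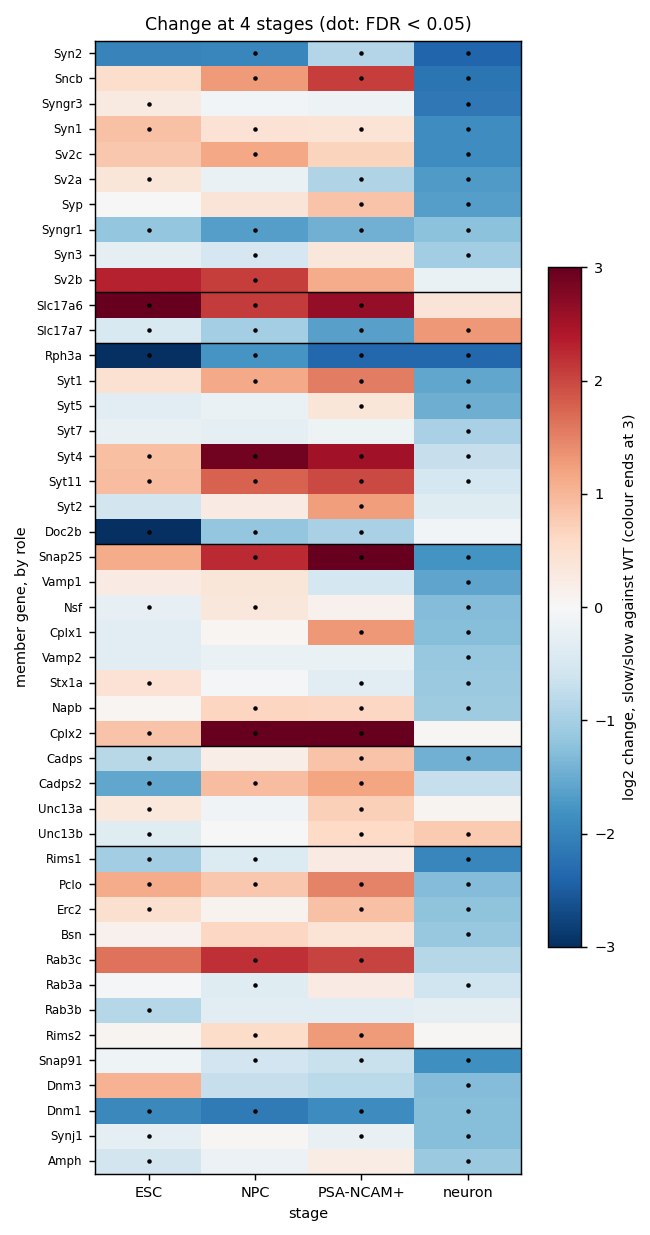
Log2 change of every member, slow/slow against WT, at the 4 stages (columns), with members in rows by role, red for higher, blue for lower, colour ending at 3 in either direction, and a dot where the FDR was under 0.05. The neuron column is mostly blue (33 lower, 2 higher), whereas the NPC and PSA-NCAM+ columns hold 16 and 21 members called higher.

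The genotype effect itself differed between stages for most members. Tested as an interaction, it was lower in neurons than in NPCs for 32 members (background 30.4%) and higher for 4 (24.7%). It was lower in neurons than in ESCs for 26 members (21.6%) and higher for 4 (20.5%). Between NPCs and ESCs it was lower for 3 (11%) and higher for 9 (13.6%). Of 13 members higher in slow/slow cells in both NPCs and PSA-NCAM+ cells, 8 were lower in neurons. With the PSA-NCAM+ calls of the stage fit with the block these became 8 and 4. Dnm1, Syngr1 and Rph3a were lower at all 4 stages, but with that fit only Dnm1 and Syngr1 were, and the NPC call on Rph3a was also lost without slow/slow replicate 1. At all 4 stages 0 members were higher, and 0 were called at no stage. The share of all genes with each of these patterns was not computed, so these counts are only a description. In NPCs and neurons 11 members were called in opposite directions, against 16.1% of all genes tested.

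The largest turn was that of Snap25. Its genotype effect in neurons minus that in NPCs was -4.03 ± 0.51 on the log2 scale (edgeR interaction, FDR = 1.82e-06). Cplx2, with a rise in NPCs and nearly equal levels in neurons, gave -3.04 ± 0.29 (FDR = 6.72e-08). Unc13b went the other way (0.78 ± 0.18, FDR = 0.000857), as did Slc17a7 (2.33 ± 0.25, FDR = 2.52e-07), Dnm1 (0.84 ± 0.14) and Doc2b (1.09 ± 0.33).

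The wider vesicle cycle was read from a list of 86 further genes, of which 85 had counts and 83 passed the filter. In neurons 46 of the 83 were lower (28.4% of all genes tested) and 7 were higher (23.4%), with a median log2 change of -0.44. The falls were led by Lin7b, from 6.17 ± 0.49 to 1.28 ± 0.25 CPM (log2 change -2.26 ± 0.27, FDR = 8.41e-07), the Munc13 family gene Unc13c (-1.97 ± 0.36, FDR = 0.000182) and the vesicular glutamate transporter Slc17a8 (VGLUT3), from 26.6 ± 0.70 to 7.44 ± 1.203 CPM (-1.84 ± 0.17, FDR = 2.28e-08). The rises were led by gamma-synuclein (Sncg), from 11.4 ± 0.71 to 67.7 ± 5.05 CPM (2.57 ± 0.29, FDR = 4.63e-07), Syt6 (2.23 ± 0.37) and the vesicular nucleotide transporter Slc17a9 (2.21 ± 0.54). In NPCs 22 were lower (27.4% of all genes) and 21 higher (29.3%), with a median of -0.04, so these shares were near those of all genes. Of single genes, Slc17a9 fell there from 18.8 ± 0.15 to 2.83 ± 0.82 CPM (-2.71 ± 0.46, FDR = 5.74e-05), with Syt17 (-2.01 ± 0.26) and Sh3gl3 (-1.69 ± 0.25), and Ppfia2 (2.83 ± 1.07), Stxbp5l (1.897 ± 0.63) and the vesicular monoamine transporter gene Slc18a1 (1.73 ± 0.32) rose most, Ppfia2 and Stxbp5l from below 0.05 CPM.

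The 5 non-members whose level followed the members' mean profile most closely were Atp6v1g2, Ss18l1, Unc79, E130309F12Rik and Iqsec3. Pearson's r over the 8 group means of log2(CPM + 1) was 0.998 to 1.000, a description over 8 points in which neurons lie far from the rest. Atp6v1g2, for example, was at 0.730 CPM in WT ESCs, 53.0 in WT and 21.9 in slow/slow neurons.

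Promoters of 36 members were matched by symbol in the RefSeq table (GRCm38.p6). The RE1 element is bound by the repressor REST, which keeps neuronal genes silent in other cells. Its 21-base consensus was searched on both strands from 250 bases before to 50 after each start, with up to 3 mismatches in its 18 fixed letters. It was found in 2 of the 36, Syn1 and Rph3a, and in 31 of 27025 genes (0.115%). The matches are shown because these genes changed in opposite directions before the neuron stage and both fell in neurons. Capitals mark letters that match the consensus, read on the motif's strand, and the matches begin 232 (Syn1) and 96 (Rph3a) bases upstream of the start, within chrX:20920869-20921168 and chr5:121009489-121009788. A match is a description of the letters, not evidence of binding.
Syn1: TTCAGCACCgcGGtCAGaGCC
Rph3a: gTCAGtACCacGGACAGcaCC

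Splicing was measured as PSI (percent spliced in), the share of transcripts that include an exon. An exon was called changed where the mean PSI differed by over 10 points with a posterior probability over 0.95. In neurons 93 exons of 26 members could be tested and 17 in 9 members changed. Of these 12 were less included (background 1.56% of 24305 exons) and 5 more included (1.99%). The WT and slow/slow values did not overlap in any of the 17, but these exons were called on the same values, so this is no separate support. In NPCs 2 of 33 exons were less included (2.12%), in PSA-NCAM+ cells 1 of 30 (0.727%), and in ESCs 0 of 14 changed (0.809%). In ESCs limma on the logit also called 0, and 0 had an unadjusted p under 0.05.

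The Snap25 pair shown above shifted toward the upstream exon in slow/slow neurons. The upstream exon (mm9 chr2:136595479-136595596) had PSI values of 36.6, 33.9 and 39.9% in WT and 47.9, 53.3 and 49.3% in slow/slow neurons. The downstream one (mm9 chr2:136595793-136595910) went from 65.0, 69.3 and 64.6% to 56.2, 47.5 and 56.8%. The mean differences were 13.4 and -12.8 points, with posteriors of 0.996 and 0.988, from 122 to 1811 reads per sample over the pair. In slow/slow neurons the mean PSI values were thus 50.2% for the upstream and 53.5% for the downstream exon, against 36.8 and 66.3% in WT.

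The same calls were also counted by length, with short exons of at most 30 bases (microexons and slightly longer exons) apart. Of 18 tested in neurons 7 were less included and 0 more included by this rule, where 15% of the 647 short exons of all genes were less included. Of the 11 not called, the 12-base exon of Dnm3 had higher values in all slow/slow samples, 96.6, 96.5 and 96.3% against 88.4, 91.7 and 89.3% (a difference of 6.64 points). Of 75 longer member exons 10 changed, 5 each way, against 3.12% of longer exons in all genes. The changed short exons with a sequence matched to GENCODE transcripts (GRCm38, by exon and flanking intron lengths) are given 5′ to 3′, followed by a 12-base exon of Dnm1 that changed in NPCs. All are coding in at least 1 transcript and of a length divisible by 3, and that of Cadps is also untranslated in some.
Unc13b, 6 bases (chr4:43233904-43233909, plus strand): gctatg
Cadps, 18 bases (chr14:12485641-12485658, minus strand): agaatcaaaaggatgcag
Erc2, 24 bases (chr14:27776159-27776182, plus strand): ttactggacgccagaagaaccaag
Synj1, 24 bases (chr16:90971564-90971587, minus strand): tttctgaacagacattacagtcag
Unc13a, 30 bases (chr8:71666641-71666670, minus strand): tcaaaaaagccaagtttgacggtgcccaag
Dnm1, 12 bases (chr2:32323179-32323190, minus strand): gatgagattctg

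The Cadps 18-base exon fell from 49.5, 48.2 and 46.2% to 20.96, 29.3 and 23.0% (mean difference -23.6 points). The Unc13b 6-base exon fell from 61.9, 58.9 and 59.1% to 42.5, 32.8 and 50.7% (-18.0 points). The Unc13a 30-base exon went from 98.98, 92.1 and 92.8% to 80.3, 76.4 and 80.4% (-15.6 points), although the level of Unc13a was not called changed. The exons of Erc2, Synj1 and Snap91 (6 bases) fell by 14.9, 11.4 and 10.7 points, and a 12-base exon of Rims2 by 23.2 points. The Dnm1 exon was at 70.5, 75.1 and 76.7% in WT and 49.5, 41.7 and 33.6% in slow/slow NPCs (-32.5 points).

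Rims2, whose level was nearly equal in both genotypes in neurons, had the most changed exons, 5 of the 17. Its 180-base exon (mm9 chr15:39366384-39366563) was the only member exon called at more than 1 stage. It went from 90.2, 83.3 and 83.0% to 40.5, 40.0 and 35.5% in NPCs and from 86.4, 88.8 and 89.0% to 51.3, 58.3 and 42.6% in neurons. In PSA-NCAM+ cells it went from 71.9, 79.0 and 75.6% to 60.8, 37.4 and 41.9% (-28.8 points), where replicate 1 differed least and a posterior over 0.99 or limma made no call. The 66-base exon fell by 30.7 points in neurons, and the 101-base and 242-base exons rose by 26.4 and 23.0 points. The 180-base exon is printed from the GENCODE transcripts at chr15:39534838-39535017 (GRCm38, plus strand) because it carries the largest difference of any changed member exon, -46.8 points in NPCs.
Rims2, 180 bases: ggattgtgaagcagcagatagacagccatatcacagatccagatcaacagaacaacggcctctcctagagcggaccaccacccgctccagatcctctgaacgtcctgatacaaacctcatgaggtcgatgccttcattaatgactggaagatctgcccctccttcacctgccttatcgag

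The remaining changed exons in neurons were in Unc13b, Snap91, Cadps and Dnm1. The 57-base exon of Unc13b fell from 65.8, 52.9 and 48.8% to 25.1, 23.2 and 19.5% (-33.2 points), in a gene whose level rose. The 108-base exon of Snap91 went from 98.8 ± 0.49 to 86.4 ± 4.38% (SD, n = 3), the 147-base exon of Cadps from 16.1 ± 1.81 to 29.6 ± 1.65%, and the 139-base exon of Dnm1 from 77.3 ± 1.22 to 87.5 ± 5.17%. Of the 9 members with a changed exon in neurons, 6 fell in level (Cadps, Dnm1, Erc2, Snap25, Snap91 and Synj1), 1 rose (Unc13b) and 2 were not called (Rims2 and Unc13a).

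**Figure D5:**
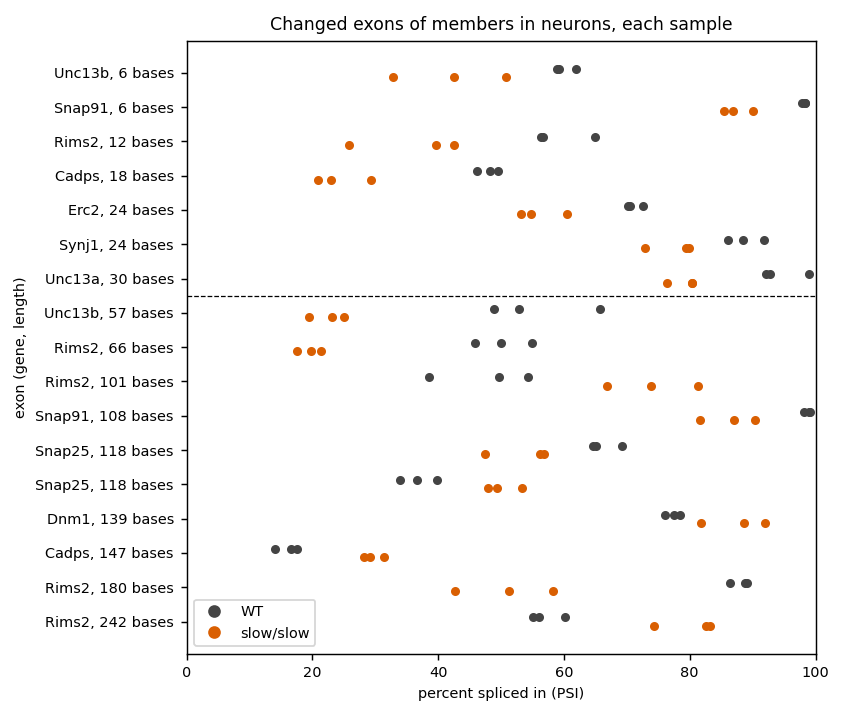
PSI in percent (x axis) of the 17 changed member exons in neurons, ordered by length, with each WT sample in grey and each slow/slow sample in orange. The 7 exons above the dashed line, of at most 30 bases, all have lower values in slow/slow neurons, and of the 10 below it 5 are higher and 5 lower.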

How the data were processed

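The authors mapped paired-end reads of poly(A)-selected TruSeq stranded libraries to mm9 and deposited raw gene counts from vast-tools, which were used as counts; whether counting used strand was not given in the sources used here. The deposited RPKM values are the authors' means per group. The deposited splicing table holds PSI as percent, with quality scores and corrected inclusion and exclusion read numbers per sample, and the authors' own log2 fold changes, FDR values and group splicing calls were not used. No column of per-sample values was left unmapped (0).

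Counts were tested with edgeR 4.0.16 (R 4.3.3) after filterByExpr (16627 genes, 16 residual degrees of freedom, common biological coefficient of variation 0.164), TMM scaling and a quasi-likelihood F test in 1 model of 8 groups. An SE is the log2 change divided by the square root of F. Sample values are TMM-scaled CPM, and a fitted change can differ slightly from the ratio of mean CPM. For exons, replicate beta posteriors with at least the vast-tools score LOW were pooled per group. limma 3.58.1 and DESeq2 1.42.0 served as alternatives. Simulated data with 100 genes changed by 1 on the log2 scale gave 99% recovery in neurons (16230 genes), and 100% of 200 exons changed by 30 points (24305 exons). The gene simulation used a biological coefficient of variation of 0.164 for every gene. The exon simulation had no spread between replicates beyond read sampling. The recovery figures thus check the code and do not give the power in these data. Same-numbered replicates had correlated deviations of 0.523, 0.415 and 0.379 in PSA-NCAM+ cells, so the numbers were taken to pair samples there, from these correlations and not from the labels. Replicates 2 and 3 also correlated across numbers (0.365 and 0.221), while replicate 1 did so negatively (-0.485 to -0.354). Deviations from a group's own mean cancel out over its replicates, so these negative values follow from the positive ones. The correlations set replicate 1 apart from 2 and 3 and do not establish a pairing by number. At the other stages same-numbered replicates of the 2 genotypes were at most at 0.046, and WT replicate 3 with slow/slow replicate 2 reached 0.121 in ESCs.

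The members, roles and other lists were chosen with earlier results of these data known. All members could be named. Every-sample values were given for the most highly counted member, the largest called fall and the largest called rise of each role in neurons and for Syn1, Snap25, Syt1, Stx1a and Vamp2, for the 3 largest called rises and falls in NPCs and PSA-NCAM+ cells, and 3 each among the other vesicle cycle genes in neurons and NPCs. In ESCs, the members named were chosen after their values were seen. Map2, Sox1 and Slc18a3 were not analysed here.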

Additional observations from a re-analysis of the deposited data

Results flagged for a closer look

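The genotype effect, tested as an interaction in edgeR, differed between neurons and NPCs for 36 members, between neurons and ESCs for 30 and between NPCs and ESCs for 12. These comparisons share samples. In each, the difference itself passed the FDR threshold. Of all 16627 genes tested, 9161, 6995 and 4091 were called in these comparisons, in the same order. The 12 members called between NPCs and ESCs were thus near the share of all genes.

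Of the members, 11 were called in opposite directions in NPCs and in neurons, against 16.1% of all genes tested. The genotype effect in neurons minus that in NPCs, on the log2 scale, was -4.03 for Snap25, -3.59 for Syt4, -3.47 for Sncb, -3.02 for Sv2c and -2.70 for Syt1. It was -2.30 for Syn1, -2.29 for Syt11, -2.11 for Pclo, -1.70 for Napb and -1.65 for Nsf. These 10 were higher in slow/slow NPCs and lower in slow/slow neurons, and Slc17a7, at 2.33, was the reverse. Of their NPC calls, those of Syn1, Syt1 and Pclo were lost in some fits that left out 1 library. With 3 samples in every group, no single sample was tested as an outlier.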

How the results depend on the processing

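Under DESeq2 size factors, upper-quartile scaling, no filter, a CPM filter, the DESeq2 Wald test and the replicate block, the counts of members called in the 4 genotype comparisons, the 6 stage comparisons and the 3 interactions stayed within 1.5 times the values given, and no member's called change reversed its sign under any alternative. The replicate block over all 24 samples gave 23, 26, 31 and 36 calls in ESCs, NPCs, PSA-NCAM+ cells and neurons. Of all 16627 genes it called 6909, 9666, 9630 and 8867, in the same order. The stage's own samples alone gave 11 calls in PSA-NCAM+ cells, and with the block, an alternative added after seeing the data, 17. Requiring a change of at least 2-fold left 8, 16 and 17 members in ESCs, NPCs and PSA-NCAM+ cells. It left 19 and 18 for WT NPCs and PSA-NCAM+ cells against ESCs, and 19 for slow/slow NPCs against ESCs. For the interaction of NPCs and ESCs it left 5, and of other vesicle cycle genes 22 in neurons and 13 in NPCs. The share of all genes passing at 2-fold was not computed, so these counts are only a description. Member exons called in neurons were 9 at 15 points, 11 at a posterior over 0.99 and 16 by limma with the replicate block. Of all 24305 exons tested there 508, 639 and 898 were called, in the same order. With 1 library left out 13 to 17 member exons were called, against 844 to 1029 of all exons. In PSA-NCAM+ cells 0 were called at 0.99 and 0 by limma with or without the block. Without replicate 1 of both genotypes, also added after seeing the data, 2 were, against 582 of all 25578 exons. Low counts limit the early stages: Sv2b had at most 1 count, and Dnm3 at most 3, in any ESC library.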
